A study of Homo sapiens with 12 samples.

Results

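The TRiC chaperonin, also called CCT, is assembled from 8 different subunits, and the mRNAs of these subunits are described here across light polysomes, heavy polysomes and total RNA of MCF10A cells with or without eIF4G1. The 8 genes are TCP1, CCT2, CCT3, CCT4, CCT5, CCT6A, CCT7 and CCT8. A gene was measured where the array held a probe set annotated to that gene alone, and the brightest such probe set over the 12 arrays stood for the gene. By this rule 7 of the 8 subunits had a value. All 3 probe sets of TCP1 also carried the symbol of a small nucleolar RNA gene, SNORA29, so TCP1 is named but has no value here. The 7 measured subunits passed the filter on low signal, which required a log2 intensity of at least 6 on at least 4 arrays and kept 10157 of 19775 genes. They passed on all 12 arrays, so none entered through the group in which it was high.

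TRiC is a cytosolic chaperonin built of back-to-back rings in which each subunit has a fixed place. It encloses newly made proteins and folds them with energy from ATP, and actins and tubulins are its best known clients. CCT2, CCT4, CCT5 and CCT7 occupy the side of the ring that binds ATP tightly, whereas TCP1, CCT3, CCT6A and CCT8 occupy the side that binds it weakly. Prefoldin hands unfolded actin and tubulin chains to TRiC, phosducin-like proteins assist it, and the tubulin cofactors take tubulin onwards after release. The eIF4G1 protein is the scaffold of the cap-binding complex that recruits ribosomes to mRNAs.

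MCF10A is a mammary epithelial line that is generally described as non-tumorigenic, although the labels give breast cancer as its origin. The cells were WT or carried an eIF4G1 knockdown (labelled 4GKD) made with a doxycycline-inducible short hairpin RNA, and each genotype received 10 Gy or a mock treatment. The 4 conditions were each assayed in 3 RNA preparations, namely pooled light polysomes (LMW), pooled heavy polysomes (HMW) and unfractionated RNA (Total), with 1 array for each. Ribosome numbers are given for the WT mock pools, 1 to 3 in LMW and 4 or more in HMW, and the other pools carry the same names. The sources used here give neither the time from irradiation to harvest nor a control hairpin or doxycycline for WT cells, so the effects of the hairpin, of doxycycline and of losing eIF4G1 cannot be told apart. Nothing states that the arrays came from separate cultures, so p-values reflect only the spread between these samples, and the number of arrays limits the precision.

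Median deposited intensities lay between 22.6 and 24.4 on the 12 arrays. The EIF4G1 transcript stood at 6.36% to 26.8% of its WT level in the 6 matched comparisons of knockdown with WT, in the direction of the labels. Of 10 markers of basal mammary epithelium, 6 had a probe set of their own and all 6 were above the filter on every Total array. ESR1, PGR and FOXA1 of hormone-receptor cells, PTPRC and CD3E of immune cells, PECAM1, VWF and CDH5 of endothelium, and COL3A1, PDGFRB and LUM of fibroblasts were below it, while the fourth fibroblast marker, COL1A1, was above it on every Total array. Some of these marker levels moved with the knockdown in Total. The summed fibroblast markers lay at log2 7.15 to 7.39 in WT and 7.76 to 7.82 in the knockdown, the hormone-receptor markers at 6.42 to 6.50 and 6.64 to 6.73, and the basal markers at 14.70 on both WT arrays and 14.52 to 14.55. Their part in the knockdown results below was not tested, and in bulk RNA fewer cells of a type and less RNA per cell cannot be told apart.

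Because eIF4G1 acts at the capped end of the mRNA, the annotated transcription starts of the subunit genes are shown first. RefSeq windows (GRCh38.p14) were held for 6 of the 8 genes, 8 windows in all, since CCT2 and CCT4 each have 2 annotated starts. Each window covers 15 bases before and 15 bases from the start, and capitals mark runs of at least 5 pyrimidines (C or T). The set shown holds the CCT4 start with a pyrimidine run at its first base, and the starts of CCT7 and CCT8. CCT7 and CCT8 are the subunits with the largest and the smallest knockdown difference between polysome pools. The other CCT4 start, not shown, has G at its first base and no run of at least 5 pyrimidines in its window. The CCT4 window lies on the minus strand of chromosome 2 (chr2:61888642-61888671), the CCT7 window on the plus strand of the same chromosome (chr2:73234293-73234322) and the CCT8 window on the minus strand of chromosome 21 (chr21:29073634-29073663).
CCT4: ggcaaggaaggCCCCCTTCTCCgCCTCCgc
CCT7: tctattgcgcgaggcattgtgggttgctgg
CCT8: aaggctgtgcgtgCTCCTCgCTTCCTCCgc
In 1 of the 8 windows, that of the CCT4 start shown, the base at the annotated start was C with at least 5 pyrimidines from there. This held in 4.07% of all 35116 windows. The annotated start follows the first 15 letters of a window. The marked CCT4 run of 11 begins before it, and 7 pyrimidines follow from the start on. Runs of at least 5 pyrimidines anywhere in the 30 bases occurred in 5 of the 8 windows and in 49.6% of all windows. The search read the printed strand only. A match in these letters is a description of the annotated start and not a site that was tested.

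The 7 subunit mRNAs had high signal in every preparation, between log2 11.06 and 13.20, where 1 unit is a 2-fold difference. Levels are set side by side within a gene only, since different probe sets are not comparable. The values on each array are given first for the subunits of the side that binds ATP tightly. In total RNA, CCT2 read 12.32 in WT mock, 12.14 in WT 10 Gy, 12.48 in knockdown mock and 12.35 in knockdown 10 Gy. In LMW the same 4 conditions gave 11.97, 11.80, 12.84 and 12.72, and in HMW they gave 12.82, 13.18, 13.02 and 12.82. Light polysomes of WT cells were thus the low arrays for CCT2, and the knockdown arrays of LMW stood near the level of HMW.

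CCT4 read 12.09, 11.93, 12.15 and 12.07 in Total, in the same order of conditions. In LMW it read 12.03 and 11.97 in WT and 12.91 and 12.78 in the knockdown, and in HMW 12.85 and 12.87 in WT and 12.75 and 12.70 in the knockdown. Its highest value of all 12 arrays was therefore in light polysomes of mock-treated knockdown cells. CCT5 read 12.001, 11.66, 12.04 and 11.86 in Total, 11.78, 11.43, 12.65 and 12.49 in LMW, and 12.65, 12.68, 12.74 and 12.67 in HMW. The 4 HMW arrays of CCT5 lay close together, while its LMW arrays separated by genotype. CCT7 read 11.44, 11.35, 11.59 and 11.46 in Total, 12.32, 11.72, 12.96 and 12.76 in LMW, and 12.83, 12.75, 12.48 and 12.57 in HMW. Its Total arrays were the low ones in every condition, and its LMW arrays exceeded the matching HMW arrays in the knockdown by more than those of any other measured subunit.

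On the side that binds ATP weakly, CCT3 read 12.15, 12.003, 12.27 and 12.28 in Total. In LMW it read 12.41, 12.16, 13.12 and 13.15, and in HMW 13.04, 13.20, 13.00 and 13.04. As for CCT4, the LMW arrays of the knockdown were above the matching HMW arrays. CCT6A read 11.51, 11.32, 11.54 and 11.45 in Total, 11.06, 11.33, 11.98 and 11.80 in LMW, and 11.98, 12.36, 12.14 and 11.89 in HMW. CCT8 read 12.27, 12.14, 12.39 and 12.42 in Total, 12.19, 12.09, 12.77 and 12.63 in LMW, and 12.81, 13.00, 13.00 and 12.80 in HMW. In both genes the lowest array was a WT array of LMW and the highest was the HMW array of irradiated WT cells.

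**Figure D1:**
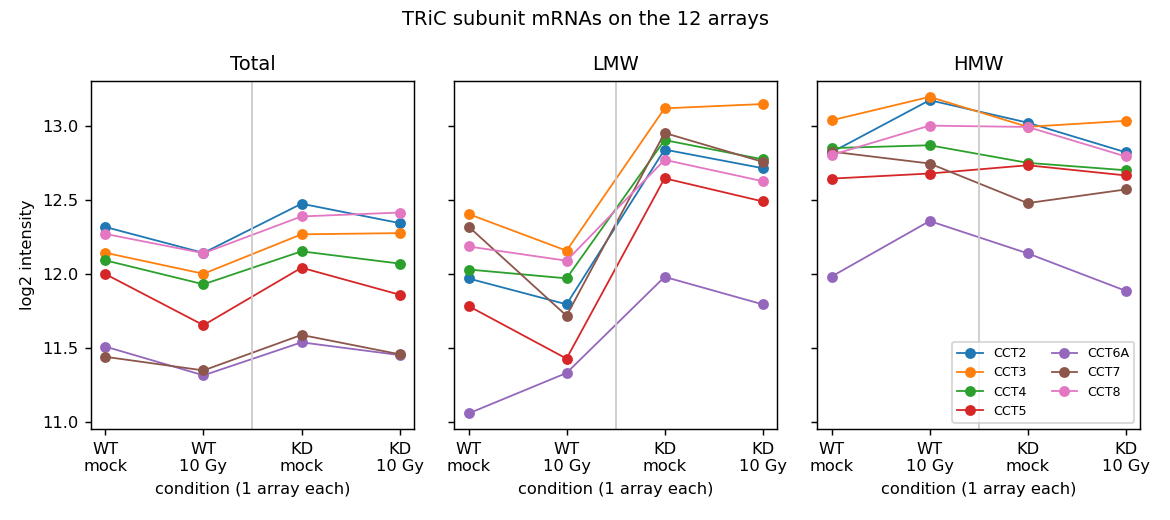
Log2 intensity of the 7 measured TRiC subunit mRNAs on the 12 arrays, in Total, LMW and HMW; each point is 1 array, the grey line separates WT from knockdown (KD), and lines join the points of a gene. In LMW both knockdown arrays lie above both WT arrays for 7 of 7 genes, and the genotypes lie closer together in Total and HMW. The share of all genes that separate in this way was not counted.

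The plot of levels by preparation shows a step between genotypes in the LMW panel. Knockdown and WT arrays did not overlap in LMW for 7 of 7 subunits, with the knockdown higher. In Total the knockdown arrays lay above the WT arrays for 4 subunits (CCT2, CCT3, CCT7 and CCT8) and overlapped them for 3. In HMW the knockdown arrays lay below the WT arrays for CCT3, CCT4 and CCT7 and overlapped them for the other 4 genes. The share of all genes whose arrays separate in this way was not counted. With so few arrays in each genotype, these counts are a description and not a result about the subunits.

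Subunit mRNAs were higher in heavy polysomes than in total RNA. All 7 rose in HMW against Total, by 1.51-fold for CCT8 to 2.29-fold for CCT7 on average over the 4 pairs, and were higher in HMW in each of the 4 conditions. A gene was called where its adjusted p (limma, Benjamini-Hochberg over all genes kept) was under 0.05. The log2 difference of CCT7 was 1.20 (SE 0.12, n = 4 pairs, limma adjusted p = 0.000968), and its lowest and highest pair gave 0.89 and 1.40. CCT3 followed with 0.89 (SE 0.11), and CCT5 with 0.79 (SE 0.10). The members' adjusted p-values in limma ran from 0.000968 to 0.00954. Of all 10157 genes, 17.4% were called higher and 18.6% lower in this comparison, and the median difference was 0.73 over the subunits against 0.03 over all genes. Without the WT 10 Gy pair 6 were called, and CCT6A did not pass at 0.50 (adjusted p = 0.0537 in limma).

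Light polysomes were less uniform. Against Total, CCT7 rose by 0.98 (SE 0.20) and CCT3 by 0.54 (SE 0.17) in LMW over the 4 pairs, with limma adjusted p-values of 0.00473 and 0.0267. The other 5 subunits lay between 0.01 (CCT2) and 0.36 (CCT4) and did not pass, and in each of them the lowest pair was a WT pair below 0 and the highest a knockdown pair above 0. With either knockdown pair left out 1 subunit was called, and centring each array on its median moved the median of all genes from 0.01 to 0.18 and that of the subunits from 0.20 to 0.36. In this comparison 28.5% of all genes were called higher and 28.1% lower, so the 2 of 7 subunits called were close to the background. The estimate for CCT2 was -0.05 under a loess correction. Between HMW and LMW, only CCT8 passed over the 4 pairs, with HMW higher by 0.48 (SE 0.14, limma adjusted p = 0.0341), against 19.6% of all genes called higher and 21.1% called lower. The other 6 had estimates of 0.22 (CCT7) to 0.63 (CCT2) and adjusted p-values up to 0.48. The count of called subunits rose to 4 when the knockdown 10 Gy pair was left out and was 0 when either WT pair was. CCT8 did not pass without the knockdown mock pair either.

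The 4 pairs behind that comparison differed by genotype. In WT mock cells, HMW exceeded LMW by 0.85 for CCT2, 0.82 for CCT4, 0.86 for CCT5, 0.51 for CCT7, 0.63 for CCT3, 0.93 for CCT6A and 0.62 for CCT8. In irradiated WT cells the difference was between 0.90 (CCT4) and 1.38 (CCT2), and 5 of the 7 exceeded 2-fold. In the knockdown the pools were nearly level, from -0.47 (CCT7) to 0.22 (CCT8) in mock cells and from -0.19 (CCT7) to 0.18 (CCT5) after 10 Gy. CCT3, CCT4 and CCT7 were higher in HMW in both WT pairs and higher in LMW in both knockdown pairs. The other 4 subunits were higher in HMW in all 4 pairs, by 0.09 to 0.22 in the knockdown.

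**Figure D2:**
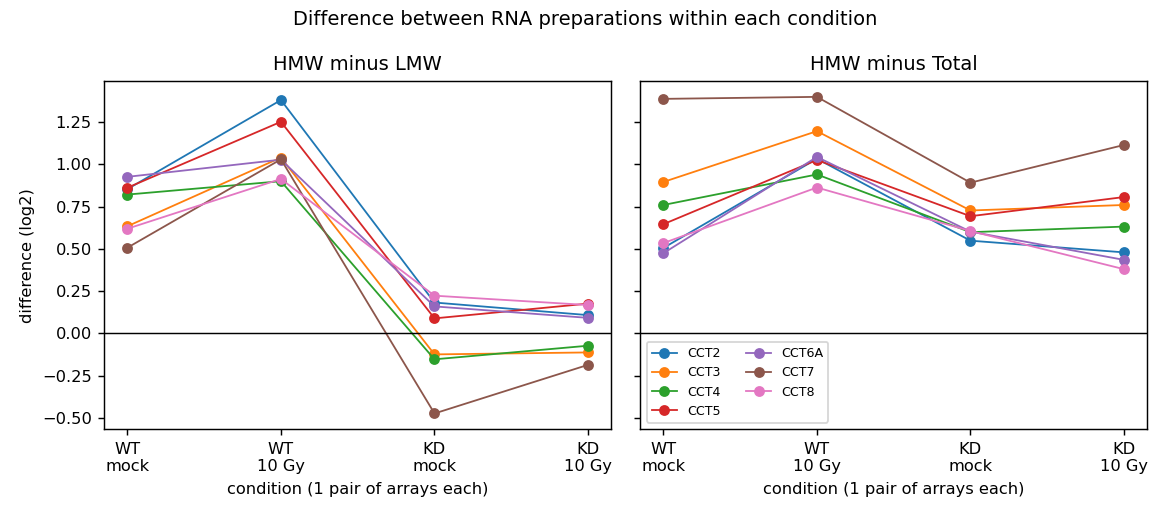
Difference between RNA preparations within each condition for the 7 subunit mRNAs, in log2 units; each point is 1 pair of arrays and lines join the points of a gene. HMW minus LMW (left) falls from 0.51 to 1.38 in the WT pairs to between -0.47 and 0.22 in the knockdown (KD) pairs, while HMW minus Total (right) stays above 0 in all pairs.

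The plot of the pairs also shows HMW minus Total, in which every subunit stayed above 0 in both genotypes. WT mock pairs lay between 0.47 and 1.39, irradiated WT pairs between 0.86 and 1.40, knockdown mock pairs between 0.55 and 0.89, and irradiated knockdown pairs between 0.38 and 1.11.

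HMW relative to LMW was lower in the knockdown than in WT for 7 of 7 measured subunits in the fit of the 4 pair differences. CCT7 fell by 1.10 on the log2 scale (SE 0.15, limma adjusted p = 2.20e-05), with single differences of -0.98 in mock cells and -1.22 after 10 Gy. CCT4 fell by 0.97 (SE 0.15, adjusted p = 6.17e-05 in limma), with -0.98 and -0.97 in mock and irradiated cells. CCT2 fell by 0.97 (SE 0.16), CCT3 by 0.96 (SE 0.14), CCT5 by 0.92 (SE 0.16) and CCT6A by 0.85 (SE 0.18). CCT8 had the smallest change, -0.57 (SE 0.15, limma adjusted p = 0.00947), with -0.40 and -0.75 in mock and irradiated cells. Both single differences were below 0 in 7 of 7 subunits, and 7 of 7 were called lower, against 10.5% of all genes called lower and 5.33% called higher. The median was -0.96 over the subunits and -0.00525 over all genes.

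These calls depended on how the spread was estimated. The fit has 1 residual degree of freedom, which is the difference between genotypes in the response to 10 Gy, and limma borrowed the rest from other genes. With all 12 arrays in 1 fit, the estimates were the same, none of the genes kept was called, and the subunits had limma adjusted p-values of 0.253 to 0.332. With the condition as a random block in that fit, again no gene was called, and those values were 0.0924 to 0.171. Without a term for 10 Gy all 7 were called, at 0.00850 to 0.0395. When each array was centred on its median, 45.7% rather than 33.6% of the genes called were higher, and the subunits' median was -0.87.

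The 2 pools contributed unequally to this difference. In LMW, the subunit mRNAs were higher in the knockdown than in WT by 1.48-fold (CCT8) to 1.95-fold (CCT5). CCT5 rose by 0.96 (SE 0.26), CCT2 by 0.90 (SE 0.24), CCT3 by 0.85 (SE 0.21), CCT4 by 0.84 (SE 0.24) and CCT7 by 0.84 (SE 0.23), at limma adjusted p-values of 0.00129 to 0.00528. CCT6A, at 0.69 (SE 0.31, adjusted p = 0.119 in limma), and CCT8, at 0.56 (SE 0.24, adjusted p = 0.0880 in limma), did not pass. Thus 5 of 7 were called higher and 0 lower, against 10.3% and 5.10% of all genes, and the median was 0.84 against a median of all genes of -0.00169. In this fit limma pooled the spread completely over genes, so a gene's own spread between pairs does not enter its p-value. All 7 were called with all 12 arrays in 1 fit, at adjusted p-values of 0.00511 to 0.0450, and none without a term for 10 Gy, at 0.0506 to 0.131.

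In HMW no subunit was called in either direction by limma, against 9.90% of all genes. None had an unadjusted limma p under 0.05, against 2065 of the 10157 genes. The estimates ran from -0.26 (CCT7) to 0.04 (CCT5), and their 95% intervals together spanned -0.66 to 0.44. CCT2, CCT5, CCT6A and CCT8 were higher in the knockdown in mock cells and lower after 10 Gy. Relative to Total, the knockdown difference in HMW was below 0 for 7 of 7 subunits, from -0.39 (CCT7) to -0.09 (CCT5). None of these passed in limma, against 4.46% of all genes called. None had an unadjusted limma p under 0.05 either, against 1502 of the 10157 genes. The 95% intervals together spanned -0.91 to 0.40.

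In total RNA the knockdown differences were small. CCT3 rose by 0.20 (SE 0.07), CCT8 by 0.20 (SE 0.07) and CCT2 by 0.18 (SE 0.06), which is 1.15-fold at most, with limma adjusted p-values of 0.0422 to 0.0452. CCT7, CCT5, CCT4 and CCT6A lay between 0.08 and 0.13 and did not pass. Over the settings run, CCT5 ranged from -0.28 to 0.21 and CCT6A from -0.12 to 0.14, so their direction does not hold. CCT4 and CCT7 stayed positive. The share called, 3 of 7 higher and 0 lower, stands beside 20.7% of all genes called higher and 19.8% called lower. The 3 calls were near the threshold: none was made without the filter, with a loess correction, without a variance trend, without a term for 10 Gy or with all 12 arrays, and the members' adjusted p-values over all settings ran from 0.0217 to 0.933. When the knockdown effect was taken in LMW relative to Total, a comparison added after the data were seen, CCT5 rose by 0.84 (SE 0.29, limma adjusted p = 0.0442). The other 6 lay between 0.37 (CCT8) and 0.74 (CCT4) and did not pass, and 6.76% of all genes were called higher and 1.11% lower.

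**Figure D3:**
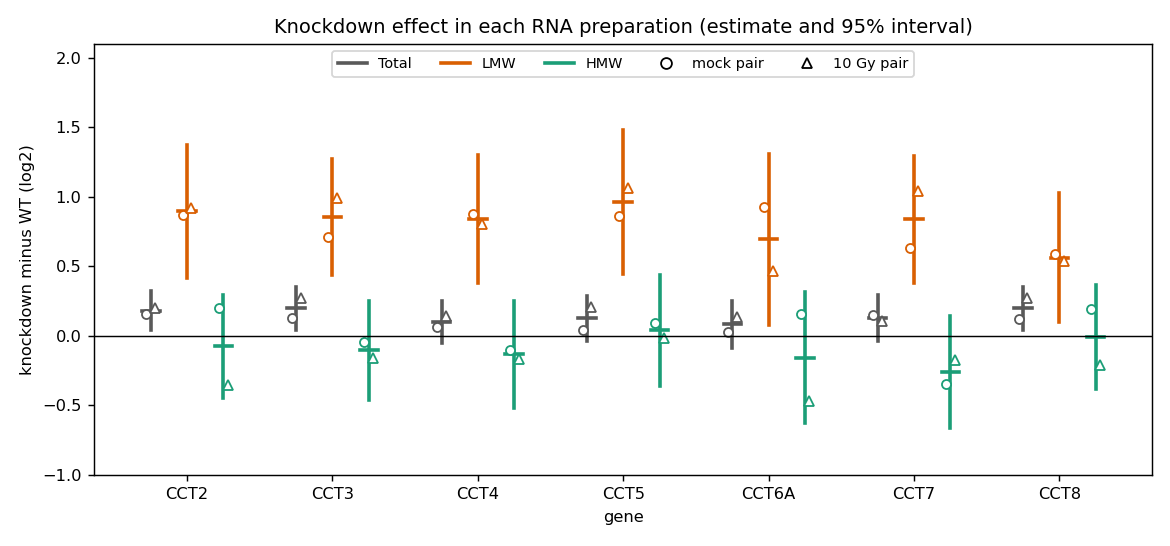
Knockdown minus WT (log2) of each subunit mRNA in Total, LMW and HMW; horizontal ticks are limma estimates, vertical bars their 95% intervals, and circles and triangles the single differences in mock and irradiated cells. The LMW estimates lie between 0.56 and 0.96, those of Total between 0.08 and 0.20, and those of HMW between -0.26 and 0.04.

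The plot of knockdown effects by preparation shows that the LMW intervals lie above 0 for 7 of 7 subunits and the HMW intervals span 0. CCT7 had the lowest HMW estimate and CCT5 the highest in both HMW and LMW. The interval of CCT6A was the widest in LMW, from 0.08 to 1.31, and its single differences were 0.92 in mock cells and 0.46 after 10 Gy.

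Irradiation left the subunit mRNAs within 2-fold of the mock level in each genotype and preparation, from 1 array against 1. In Total, all 7 were lower after 10 Gy in WT cells, by 0.09 (CCT7) to 0.35 (CCT5), and 5 of 7 were lower in the knockdown. In the fit over both genotypes CCT5 had the largest difference, -0.26 (SE 0.07, limma adjusted p = 0.186). No subunit was called by limma, against 0.177% of all genes. In that fit 2 of the subunits had an unadjusted limma p under 0.05, as did 1305 of the 10157 genes. In HMW, 6 of 7 were higher after 10 Gy in WT cells, from -0.08 (CCT7) to 0.38 (CCT6A), and 5 of 7 were lower in the knockdown, from -0.25 (CCT6A) to 0.09 (CCT7). In LMW, 6 of 7 were lower after 10 Gy in each genotype. In HMW relative to Total, the estimates for 10 Gy were 0.05 (CCT8) to 0.25 (CCT5). None passed in limma, against 0.276% of all genes, and none had an unadjusted limma p under 0.05, against 775 of the 10157 genes. Centring each array on its median moved the median of all genes in that comparison from 0.09 to -0.09 and the subunits' median from 0.17 to -0.02, so these estimates have no direction that holds.

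A second probe set was available for some subunits. For CCT2 it gave a knockdown difference in HMW minus LMW of -1.14, for CCT5 -0.90 and for CCT6A -0.63. In LMW alone the differences in mock and irradiated cells were 1.14 and 1.02 for CCT2, and 1.10 and 0.10 for CCT6A. The CCT5 one was low in signal, at log2 5.48 to 7.56. Its differences were 0.23 and 0.34 in LMW and -0.26 and -0.98 in HMW, so its shift came in part from HMW. The other CCT4 probe set, at log2 6.11 to 7.15, gave 0.16, against -0.97 for the brighter one. In LMW it was lower in the knockdown, by -0.41 in mock cells and -0.20 after 10 Gy. The other CCT8 probe set was dim, at log2 2.64 to 3.61, and is not read.

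Among genes that work with TRiC, most mRNAs of actins and tubulins, its main clients, were higher in both polysome pools than in total RNA. Of 11 measured, 10 rose in HMW against Total and none fell, with the beta-tubulin TUBB4B at 1.03 (SE 0.11) and the gamma-tubulin TUBG1 at 1.02 (SE 0.18) highest and the cytoplasmic actin ACTB at 0.31 (SE 0.05) lowest. Their median was 0.54. In LMW against Total all 11 rose, with a median of 0.77. Of all genes, 17.4% were called higher in HMW against Total and 28.5% in LMW against Total. Between HMW and LMW none of the 11 was called, with a median of -0.08. The subunits differed, with medians of 0.20 in LMW against Total and 0.48 in HMW against LMW. In the knockdown their HMW minus LMW difference fell in 9 of 11, for example by 0.83 (SE 0.16) for TUBB3 and by 0.77 (SE 0.13) for TUBB4B, and ACTB, at -0.07, did not pass. The pools behind it differed from those of the subunits in the counts: in HMW 7 of 11 fell, led by TUBA4A at -0.90 (SE 0.22) and TUBB4B at -0.84 (SE 0.18), and in LMW none passed. In Total, 7 of the 11 fell and 2 rose with the knockdown. Of all genes, 10.5% were called lower for HMW minus LMW and 9.90% were called in HMW in either direction. In Total 19.8% of all genes were called lower and 20.7% higher. Tubulin genes are near-identical in sequence, so signal may be shared between their probe sets.

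Of 12 other clients, 8 rose in HMW against Total, with the cell-cycle genes CDC20 at 1.95 (SE 0.14) and PLK1 at 1.40 (SE 0.19) highest. GNB1 at -0.02 and VHL at -0.32 were lowest and not called. Of all genes, 17.4% were called higher there. In LMW against Total 8 also rose, against 28.5% of all genes, with CDC20 at 2.15 and PLK1 at 1.47. The list's median was 1.20 in LMW and 0.66 in HMW against Total. Between HMW and LMW, 5 were called lower and 0 higher, against 21.1% of all genes called lower, with a median of -0.34. In the knockdown, the HMW minus LMW difference fell for 3 of the 12, against 10.5% of all genes called lower. These were the transcription factor STAT3 at -1.41 (SE 0.24), CDC20 at -1.02 (SE 0.17) and the telomerase factor WRAP53 at -0.99 (SE 0.27). With the knockdown in Total 4 of the 12 fell and none rose, beside 19.8% of all genes called lower and 20.7% called higher. The 4 were CDC20 by 1.82 (SE 0.25), PLK1 by 1.31 (SE 0.15), the cyclin CCNE1 by 0.79 (SE 0.11) and the G protein subunit GNB1 by 0.40 (SE 0.09).

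Prefoldin subunits had the opposite sign to the TRiC subunits in HMW against Total and in the knockdown difference of HMW minus LMW. Against Total, 4 of 5 measured fell in HMW, PFDN4 by 0.94 (SE 0.16), PFDN5 by 0.80 (SE 0.14), PFDN1 by 0.61 (SE 0.17) and PFDN2 by 0.50 (SE 0.14), and VBP1, at -0.19, did not pass. In the knockdown, HMW minus LMW rose for VBP1 by 0.93 (SE 0.24), PFDN4 by 0.88 (SE 0.27) and PFDN5 by 0.81 (SE 0.23), and the other 2 did not pass at 0.62 and 0.52. No prefoldin subunit passed in HMW or in LMW alone. Of all genes, 18.6% were called lower in HMW against Total, and 5.33% were called higher with the knockdown in HMW minus LMW. The 2 measured phosducin-like cofactors, PDCL and TXNDC9, were not called in HMW against Total, at 0.05 and 0.07, or in the knockdown difference of HMW minus LMW, at 0.40 and 0.53.

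Tubulin cofactors split. TBCD, at 1.42 (SE 0.22), and ARL2, a small GTPase that binds it, at 0.63 (SE 0.19), rose in HMW against Total with TBCB, and TBCA fell by 0.84 (SE 0.15). In LMW against Total ARL2 and TBCB rose more, by 1.31 and 1.28. Between HMW and LMW, 3 of the 6 cofactors were called lower (ARL2, TBCB and TBCC) and 1 higher (TBCE). Of all genes, 21.1% were called lower and 19.6% higher there. With the knockdown, HMW minus LMW fell by 1.25 (SE 0.27) for TBCD and rose by 0.92 (SE 0.21) for TBCA. Among 5 measured relatives of the chaperonin, CCT6B, the testis-type paralog of CCT6A, rose in HMW against Total by 0.46 (SE 0.15) and MKKS fell by 1.05 (SE 0.18). HMW minus LMW rose with the knockdown for MKKS, by 1.25 (SE 0.26). The mitochondrial chaperonin HSPD1 had knockdown differences of 1.14 (SE 0.23) in LMW and -0.66 (SE 0.14) in HMW minus LMW, both called and of the same sign as those of the TRiC subunits. Its differences in HMW relative to Total, 0.67 (SE 0.19), and in Total, -0.19 (SE 0.05), were also called and had the opposite sign to the subunits' estimates. Its partner HSPE1 had -1.23 (SE 0.37) in LMW and 0.76 (SE 0.22) in HMW minus LMW, both called. Of all genes, 17.4% were called higher and 18.6% lower in HMW against Total, and 28.5% higher in LMW against Total. With the knockdown, 10.5% were called lower and 5.33% higher in HMW minus LMW, and 10.3% higher and 5.10% lower in LMW. The knockdown difference in HMW relative to Total was called for 4.46% in either direction, and 19.8% were called lower in Total. The calls of all these lists for HMW minus LMW were lost with all 12 arrays in 1 fit, in which no gene passed.

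**Figure D4:**
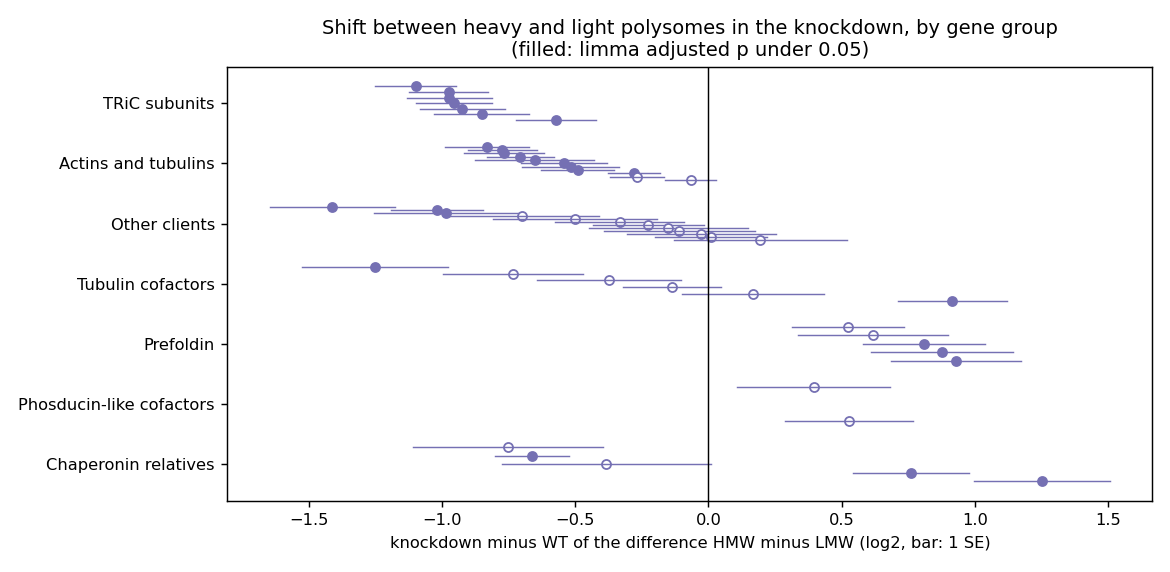
Knockdown minus WT of the difference HMW minus LMW (log2) for the measured genes of 7 groups; each point is a gene, bars are 1 SE, and filled points had a limma adjusted p under 0.05 in the fit of the 4 pair differences. TRiC subunits lie between -1.10 and -0.57, actins and tubulins between -0.83 and -0.07, and prefoldin subunits between 0.52 and 0.93.

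The plot of the knockdown difference by gene group sets the 7 subunits beside these 6 lists, of which only prefoldin and the phosducin-like pair lay wholly above 0.

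Across the 12 arrays the subunits followed each other. Pearson's r over the 21 pairs of subunits had a median of 0.91, from 0.70 between CCT6A and CCT7 to 0.98 between CCT3 and CCT4. The arrays share preparations and normalisation, so this is a description and was not tested. The 5 other genes whose profile was most like the mean centred profile of the subunits were LAS1L (r = 0.981), STIP1 (r = 0.980), PAF1 (r = 0.978), ATIC (r = 0.972) and CSTF2 (r = 0.971). LAS1L takes part in ribosome biogenesis, STIP1 is a co-chaperone that links HSP70 to HSP90, PAF1 is a subunit of a transcription elongation complex, ATIC is an enzyme of purine synthesis and CSTF2 acts in mRNA 3′ end cleavage. Their knockdown differences in HMW minus LMW were -1.54, -1.50, -0.92, -1.06 and -1.27, values on which their choice in part rests.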

How the data were processed

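RNA of 12 samples was measured on oligonucleotide arrays with 54675 probe sets, 1 sample for each condition and preparation. Per the submitters' processing notes the deposited values are intensities made by the authors with RMA, a method of background correction, normalisation across arrays and probe summary. The RMA version and the set of arrays it was run on are not stated in the sources used here. Values are relative within an array, so the amount of polysome RNA does not show in them. The deposited intensities are on a linear scale and were turned to log2. The platform annotation gave 1 symbol for 41097 probe sets and several for 1801, and 11777 were absent from it. Those with 1 symbol were used, and the brightest on average over the 12 arrays stood for its gene. Genes at log2 6 or above on at least 4 arrays were kept.

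Tests used limma 3.58.1 in R 4.3.3 on all 10157 genes kept, with eBayes following mean intensity and Benjamini-Hochberg adjustment at 0.05. Preparations were compared over 4 matched pairs with the condition as a block (3 residual degrees of freedom). The terms for knockdown and 10 Gy were additive, on 4 arrays or 4 pair differences (1 residual degree of freedom). The spread was pooled completely over genes for the knockdown in HMW, in LMW, in HMW minus Total and in LMW minus Total, and for 10 Gy in HMW minus Total. Elsewhere the prior degrees of freedom were 3.96 to 27.1.

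The subunits and the 6 lists of 46 genes were chosen with earlier results of these data known. The rule names the 8 subunits, EIF4G1, in each list the 2 highest and 2 lowest genes in HMW against Total and any gene called, and the 5 genes most like the subunits. Alternatives were other filters, probe sets, normalisations and variance priors, all 12 arrays in 1 fit, no condition block, each pair left out, and, added after the data were seen, the condition as a random block, no term for 10 Gy and LMW minus Total. The scripts were tested on simulated data. Sequences of start windows came from RefSeq, and TCP1 was not analysed here.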

Additional observations from a re-analysis of the deposited data

Results flagged for a closer look

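The knockdown difference was unlike in heavy and light polysomes for each measured subunit, by the limma test of that difference. HMW minus LMW changed with the knockdown by -0.972 for CCT2, -0.956 for CCT3, -0.975 for CCT4, -0.925 for CCT5, -0.852 for CCT6A, -1.10 for CCT7 and -0.571 for CCT8 on the log2 scale. The tests rest on 4 pair differences, and with all 12 arrays in 1 fit no gene was called for this difference. The knockdown difference of CCT5 was also larger in LMW than in Total, by 0.839 (limma adjusted p = 0.0442).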

How the results depend on the processing

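Preparations were paired by condition. No block by replicate number could be fitted, since each condition and preparation has 1 array. No estimate of a called subunit changed sign under the alternatives run. Of 102 alternative counts of called subunits, 75 stayed within 1.5 times of the count reported. The 75 include all alternatives of the comparisons with no called subunit, where again none was called. These were the knockdown in HMW and in HMW minus Total, and 10 Gy in Total and in HMW minus Total. Some estimates that were not called changed sign, such as those of CCT5 and CCT6A for the knockdown in Total. The count for HMW against LMW, 1 as reported, was 2 with the median of a gene's probe sets, 0 without a variance trend, 4 with all 12 arrays, 0 without the condition block and 0 to 4 when a pair was left out. The count for HMW against Total, 7, was 4 without probe sets ending in _x_at or _s_at and 6 to 7 when a pair was left out. Without those probe sets 5 subunits remain, since CCT2 has no other and the dim other CCT8 probe set is below the filter. The count for LMW against Total, 2, was 1 without a trend, 1 without the block and 1 to 2 when a pair was left out. For the knockdown in Total, 3, it was 1 with the median of probe sets and 0 with no filter, without _x_at and _s_at probe sets, with loess, without a trend, with all 12 arrays, with the condition as a random block or without a term for 10 Gy. For the knockdown in LMW, 5, it was 3 with the median of probe sets, 0 without a trend, 1 as LMW minus Total and 0 without a term for 10 Gy. For the knockdown in HMW minus LMW, 7, it was 4 of 5 without _x_at and _s_at probe sets and 0 with all 12 arrays, with or without the condition as a random block. With the median of its probe sets CCT4 gave -0.41 there. Beyond the fewer subunits left without _x_at and _s_at probe sets, the cause was not tested. For 10 Gy, higher genes made up 72.2% of the 18 calls in Total, 61.2% with loess, 53.0% after median centring, 48.7% with no filter and 45.7% with the filter at 7, and all 28 calls in HMW minus Total but 1 of 3 with loess.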
